A study of Mus musculus with 6 samples.

Results

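A set of 30 genes of cholesterol synthesis, sterol uptake and transport, SREBP2 control and cholesterol esterification was followed in mouse liver RNA-Seq. The genes were taken by gene symbol from a fixed list ordered by pathway step. All 30 were found once among the 41388 genes counted, and all 30 passed the filter on low counts that left 17287 genes to test. The list held 8 genes of the mevalonate arm, 3 of the squalene steps, 9 from lanosterol to cholesterol, 4 of sterol uptake and transport, 4 regulators and 2 of esterification. The set does not cover the whole pathway, and further genes tied to it were counted from separate lists by role.

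Cholesterol is built from acetyl-CoA through mevalonate, farnesyl pyrophosphate, squalene and lanosterol. Transcription of these enzymes is driven by SREBP2, a membrane-bound factor that Scap escorts from the endoplasmic reticulum to the Golgi when membrane sterol is low, and that the Insig proteins hold back when sterol is plentiful. The liver makes cholesterol, takes it up from lipoproteins, stores it as cholesteryl ester and secretes it in bile and VLDL, and the intestine supplies dietary cholesterol packed in chylomicrons.

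The data came from livers of C57BL/6 mice fed a methionine- and choline-deficient (MCD) diet for 3 weeks and fasted for 4 h. The Mttp-IKO group carried floxed Mttp and a tamoxifen-inducible Cre driven by the villin promoter, and received tamoxifen for 5 days, which deletes the microsomal triglyceride transfer protein gene in intestinal epithelium and not in liver. The control group, labelled wild type (WT), was described in the study's methods as littermates of the same floxed Cre line given vehicle. Tamoxifen and the deletion therefore cannot be told apart. Mice were 12 to 16 weeks old and began the diet 3 weeks after injection. Each genotype had 3 libraries, and each library was one RNA pool of 3 to 4 mice, so that the tests measured the spread between pools and not between single animals. Both groups ate the MCD diet, and no group on a standard diet was analysed here.

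Total reads on genes ranged from 25271585 to 36238734 per pool, which set a floor of 3 reads at 0.0828 to 0.119 CPM (reads of a gene scaled to a fixed library total). Levels below are CPM scaled between pools by TMM, and differences are log2 fold changes of Mttp-IKO against WT from edgeR's quasi-likelihood test, with p-values adjusted over all 17287 genes. Liver Mttp, which the villin-driven Cre does not target and which therefore does not check the labels, stood at 90.4, 186 and 175 CPM in the WT pools and at 145, 129 and 161 CPM in the Mttp-IKO pools. Small noncoding RNAs made up 2.75% to 3.51% of reads in the WT pools, 2.13% and 1.92% in Mttp-IKO pools 1 and 2 and 0.289% in Mttp-IKO pool 3, so pool 3 stood apart on this measure. Summed markers of recruited macrophages ran from 490 to 1296 CPM in WT and from 232 to 289 CPM in Mttp-IKO pools, with all 8 markers lower and 5 past the test. Summed stellate cell markers ran from 930 to 1719 CPM against 478 to 527 CPM, with all 9 lower and 6 past the test. Over all genes tested, 3.09% were called lower and 0.920% higher. Of the 6 Kupffer cell markers, 3 were higher and 3 lower, and only Timd4 passed the test, as higher. No endothelial, cholangiocyte, T cell or B cell marker passed. Summed hepatocyte markers ran from 55730 to 87678 CPM against 104870 to 153497 CPM, with 4 of 6 higher, 2 lower and none past the test, and Alb, the defining hepatocyte transcript, was abundant in every pool. In whole liver, fewer cells of a type and less RNA per cell cannot be told apart.

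The 20 synthesis enzymes and the 4 regulators all had higher fitted levels in the Mttp-IKO livers, the 4 transport genes overlapped between genotypes, and the 2 esterification genes went opposite ways. Of the 30 genes, 28 had a higher fitted level in Mttp-IKO than in WT pools, and the median log2 fold change was 1.01, a 2.02-fold difference, against 0.0057 over all genes tested. Of these, 5 genes passed an adjusted p of 0.05, namely Insig2, Lss, Nsdhl, Tm7sf2 and Srebf2. All 5 were higher, where 0.920% of all genes tested were called higher, 3.09% lower and 4.01% in either direction. None of the 30 was called lower in this fit. At an unadjusted p under 0.05, 22 genes were higher and 1 was lower, against 9.53% and 13.5% of all genes. In 19 genes every Mttp-IKO pool exceeded every WT pool, a pattern found in 14.5% of all genes, and in 1 gene, Soat1, every Mttp-IKO pool fell below every WT pool, as in 16.5% of all genes. Together 20 of the 30 genes did not overlap, against 31.0% of all genes, and the other 10 did.

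**Figure D1:**
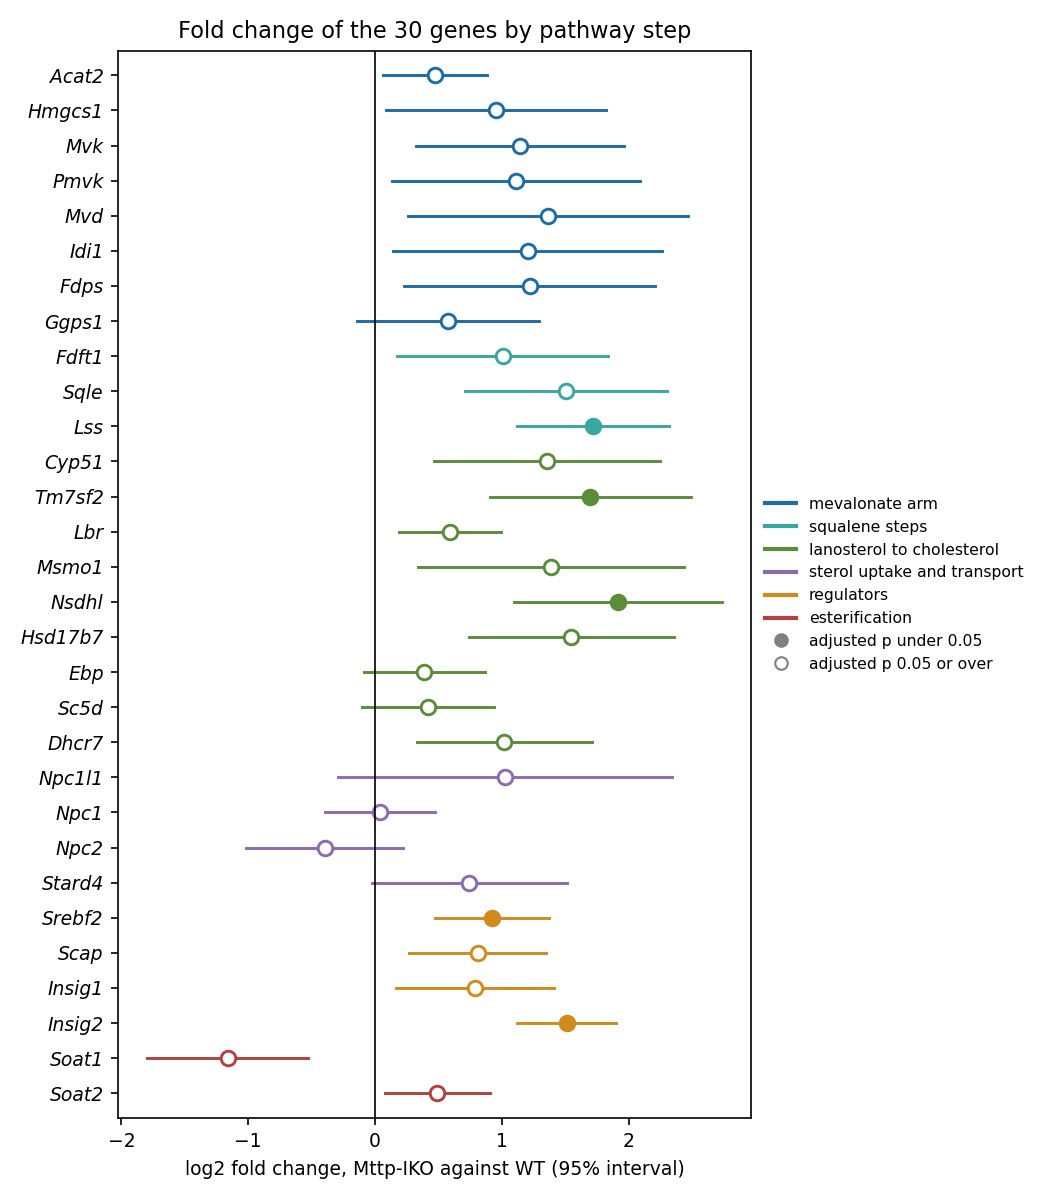
Log2 fold change of Mttp-IKO against WT for the 30 genes in pathway order, with 95% intervals from the edgeR fit on 3 pools per genotype; filled circles mark the 5 genes with an adjusted p under 0.05. All 20 synthesis enzymes and all 4 regulators lie to the right of 0, and Soat1 lies farthest to the left at -1.16.

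The 5 calls rested on few pools. With 3 pools against 3, the smallest two-sided p of an exact permutation test of one gene is 0.1, so single-gene calls came from the model across all genes. Leaving out WT pool 1, WT pool 3 or Mttp-IKO pool 2 left 0 of the 30 genes called by edgeR, with 17, 14 and 15 of them at an unadjusted p under 0.05, and the calls over all genes fell from 694 to 24, 21 and 0. Leaving out Mttp-IKO pool 1 left 1 of the 30, leaving out WT pool 2 gave 10, and leaving out Mttp-IKO pool 3, the one short of small RNAs, gave 5. Calls over all genes are not set beside these last counts. The share of all genes at an unadjusted p under 0.05 is not set beside the counts above either. They are therefore not read as a result about the 30 genes. The median log2 fold change of the 30 genes stayed between 0.75 and 1.32 in these fits. Their highest adjusted p was 0.0914 for Insig2, 0.0998 for Lss, 0.129 for Nsdhl, 0.149 for Tm7sf2 and 0.199 for Srebf2.

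The 20 synthesis enzymes were all higher in Mttp-IKO pools, with a median log2 fold change of 1.17. Of these, 3 passed the test, 17 had an unadjusted p under 0.05, and 14 did not overlap between genotypes. Over all genes tested, 0.920% were called higher, 9.53% were higher at that unadjusted p and 14.5% were higher without overlap. Read per length, their summed level was 251, 613 and 433 RPKM in the WT pools and 836, 1002 and 770 RPKM in the Mttp-IKO pools. The sums of the genotypes did not overlap, with means of 433 ± 181 and 869 ± 120 RPKM (SD, n = 3 pools), a 2.01-fold ratio. The summed hepatocyte markers differed by 1.75-fold between the same groups, a ratio carried by Alb. Without Alb the other 5 markers summed to 17322 ± 1570 CPM in WT and 20076 ± 1188 CPM in Mttp-IKO (SD, n = 3 pools), a ratio of 1.16, with Ttr and Hpx lower in Mttp-IKO means. The part of hepatocyte RNA in the enzyme difference was not tested.

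**Figure D2:**
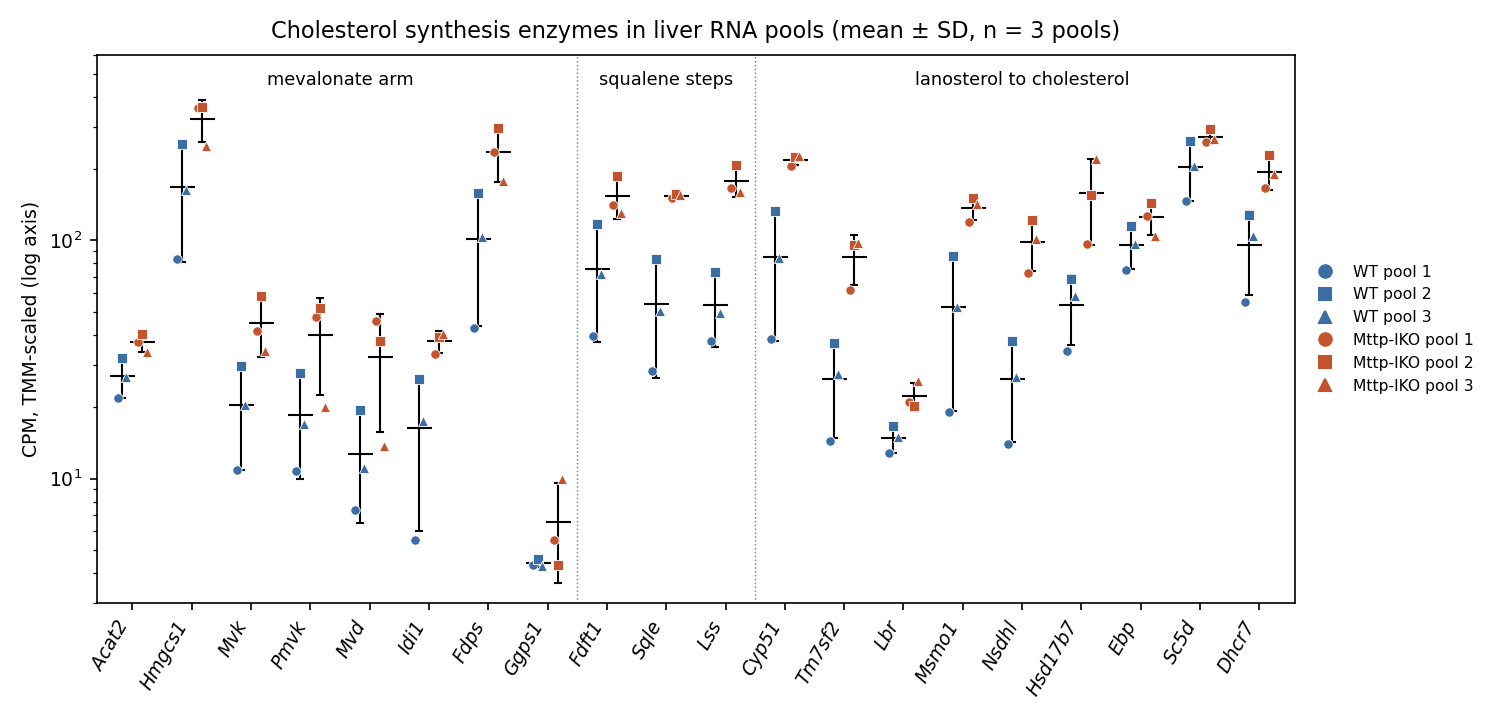
Levels of the 20 synthesis enzymes in each RNA pool in TMM-scaled CPM on a log axis, with WT pools in blue and Mttp-IKO pools in orange; black marks give the mean ± SD of 3 pools. WT pool 1 is the lowest point for 19 of the 20 genes, and 14 genes have no overlap between genotypes.

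The mevalonate arm, which carries acetyl-CoA to farnesyl and geranylgeranyl pyrophosphate, had 8 of 8 genes higher, none past the adjusted threshold and a median log2 fold change of 1.13. By edgeR, 7 of the 8 had an unadjusted p under 0.05, and the adjusted p ran from 0.113 to 0.311. The share of all genes that were higher at that unadjusted p was 9.53%. Hmgcs1, the synthase that makes HMG-CoA, measured 83.2, 255 and 162 CPM in the WT pools and 358, 362 and 249 CPM in the Mttp-IKO pools. WT pool 2 lay above Mttp-IKO pool 3, so the genotypes overlapped, and the log2 fold change was 0.96 with an adjusted p of 0.182. Among the kinases and the decarboxylase that activate mevalonate, Mvk was higher by 1.14 on the log2 scale without overlap, whereas Pmvk (1.11) and Mvd (1.36) overlapped because Mttp-IKO pool 3 read close to the WT pools. Mvd stood at 45.9 and 37.9 CPM in Mttp-IKO pools 1 and 2 and at 13.7 CPM in pool 3, below the 19.4 CPM of WT pool 2. Idi1, the isomerase of isopentenyl pyrophosphate, and Fdps, which makes farnesyl pyrophosphate, did not overlap and had log2 fold changes of 1.20 and 1.22. Acat2, the cytosolic thiolase of the first step, differed least among the non-overlapping genes of this arm at 0.47. Ggps1, on the branch to geranylgeranyl pyrophosphate, was the lowest enzyme, at 4.31 to 4.60 CPM in WT and 4.36 to 9.94 CPM in Mttp-IKO pools, and its higher mean came from Mttp-IKO pool 3.

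The squalene steps had the largest median of the 6 steps, at 1.50. All 3 genes were higher without overlap, as were 14.5% of all genes tested. Lss, the cyclase that folds squalene epoxide into lanosterol, measured 37.9, 73.5 and 49.5 CPM in the WT pools and 165, 207 and 159 CPM in the Mttp-IKO pools. The lowest Mttp-IKO pool was far above the highest WT pool. The log2 fold change of Lss was 1.72 ± 0.26 (SE) with an adjusted p of 0.0192, a 3.30-fold rise, and the 95% interval on the log2 scale was 1.12 to 2.32. Sqle, the squalene epoxidase, measured 28.4, 83.3 and 50.7 CPM in WT and 150, 156 and 155 CPM in Mttp-IKO pools. The Mttp-IKO pools were nearly level while the WT pools spread widely. At a log2 fold change of 1.50 the adjusted p of 0.0538 lay just above the threshold, so Sqle was not called. Fdft1, the squalene synthase, had a log2 fold change of 1.01 and an adjusted p of 0.152.

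From lanosterol to cholesterol, all 9 genes were higher, 2 passed the test, 7 did not overlap and the median log2 fold change was 1.36. The shares over all genes tested were 0.920% called higher and 14.5% higher without overlap. Nsdhl, a dehydrogenase that helps to remove the methyl groups of lanosterol, had the largest difference of all 30 genes. It measured 14.0, 37.7 and 26.7 CPM in the WT pools and 72.6, 121 and 102 CPM in the Mttp-IKO pools. The ranges lay well apart, with a log2 fold change of 1.92 ± 0.36 (SE), a 3.77-fold rise with a 95% interval of 2.13 to 6.67, and an adjusted p of 0.0327. Tm7sf2, a sterol reductase of the ring that Cyp51 has demethylated, measured 14.3, 37.0 and 27.4 CPM in WT and 61.7, 95.7 and 97.8 CPM in Mttp-IKO pools. Every Mttp-IKO pool was again above every WT pool, with a log2 fold change of 1.70 ± 0.34 (SE) and an adjusted p of 0.0404. Tm7sf2 lost its call in 5 of the fits that left out a pool. Its adjusted p by edgeR was 0.0603 without Mttp-IKO pool 3 and reached 0.149 at the highest.

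Hsd17b7, the keto reductase that acts after Nsdhl, measured 34.4, 68.5 and 58.4 CPM in WT and 96.3, 155 and 220 CPM in Mttp-IKO pools. It did not overlap, and with a log2 fold change of 1.55 its adjusted p was 0.0522. Cyp51, the lanosterol demethylase, measured 38.5, 133 and 84.1 CPM in WT and 206, 223 and 226 CPM in Mttp-IKO pools. The WT spread was wide, and the log2 fold change of 1.36 had an adjusted p of 0.0920. Dhcr7, the reductase of the last step, measured 55.3, 127 and 105 CPM in WT and 166, 228 and 189 CPM in Mttp-IKO pools, with a log2 fold change of 1.02 and an adjusted p of 0.0982.

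Lbr, which carries the same reductase activity as Tm7sf2 and also anchors heterochromatin at the nuclear lamina, measured 12.8, 16.6 and 14.9 CPM in WT and 21.0, 20.2 and 25.6 CPM in Mttp-IKO pools. The groups did not overlap, and its log2 fold change of 0.59 (adjusted p = 0.0980) was below that of Tm7sf2, a difference between the genes that was not tested. Msmo1, the methyl sterol oxidase, had a log2 fold change of 1.39 without overlap and an adjusted p of 0.126. Ebp and Sc5d, the isomerase and the desaturase before Dhcr7, overlapped between genotypes and had the smallest log2 fold changes of the enzymes, 0.39 and 0.42. Sc5d was the most abundant of the 30 genes per length in WT, at a mean of 87.6 RPKM, and Fdps was the most abundant in Mttp-IKO, at 190 RPKM.

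All 4 regulators were higher in every Mttp-IKO pool than in any WT pool, against 14.5% of all genes. Of the 4, 2 passed the test, against 0.920% of all genes called higher. Insig2, which retains the SREBP and Scap complex in the endoplasmic reticulum, measured 96.4, 91.6 and 98.0 CPM in the WT pools and 233, 276 and 307 CPM in the Mttp-IKO pools. The WT pools were nearly level and did not share the spread of the enzymes. Its log2 fold change was 1.51 ± 0.17 (SE), a 2.86-fold rise with a 95% interval of 2.18 to 3.74, and its adjusted p of 0.0132 was the smallest of the 30 genes. Srebf2, the gene of SREBP2 itself, measured 93.7, 143 and 114 CPM in WT and 203, 238 and 223 CPM in Mttp-IKO pools. The groups did not overlap, and the log2 fold change was 0.92 ± 0.20 (SE) with an adjusted p of 0.0446. Leaving out WT pool 1, WT pool 3 or Mttp-IKO pool 2 raised the adjusted p of Insig2 to 0.0626, 0.0652 and 0.0914 while its log2 fold change stayed at 1.50 to 1.51.

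Scap measured 98.0, 120 and 99.4 CPM in WT and 142, 164 and 250 CPM in Mttp-IKO pools. Mttp-IKO pool 3 stood above the other two, and the log2 fold change of 0.81 had an adjusted p of 0.0948. Insig1, a direct target of SREBP2 that serves in its feedback, measured 120, 252 and 177 CPM in WT and 299, 361 and 291 CPM in Mttp-IKO pools. Unlike Insig2 it varied among the WT pools in the order of the enzymes, and its log2 fold change was 0.79 with an adjusted p of 0.138. Per length, Insig1 remained the more abundant of the pair in both genotypes, at a mean of 67.9 against 27.4 RPKM in WT and 117 against 78.4 RPKM in Mttp-IKO.

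**Figure D3:**
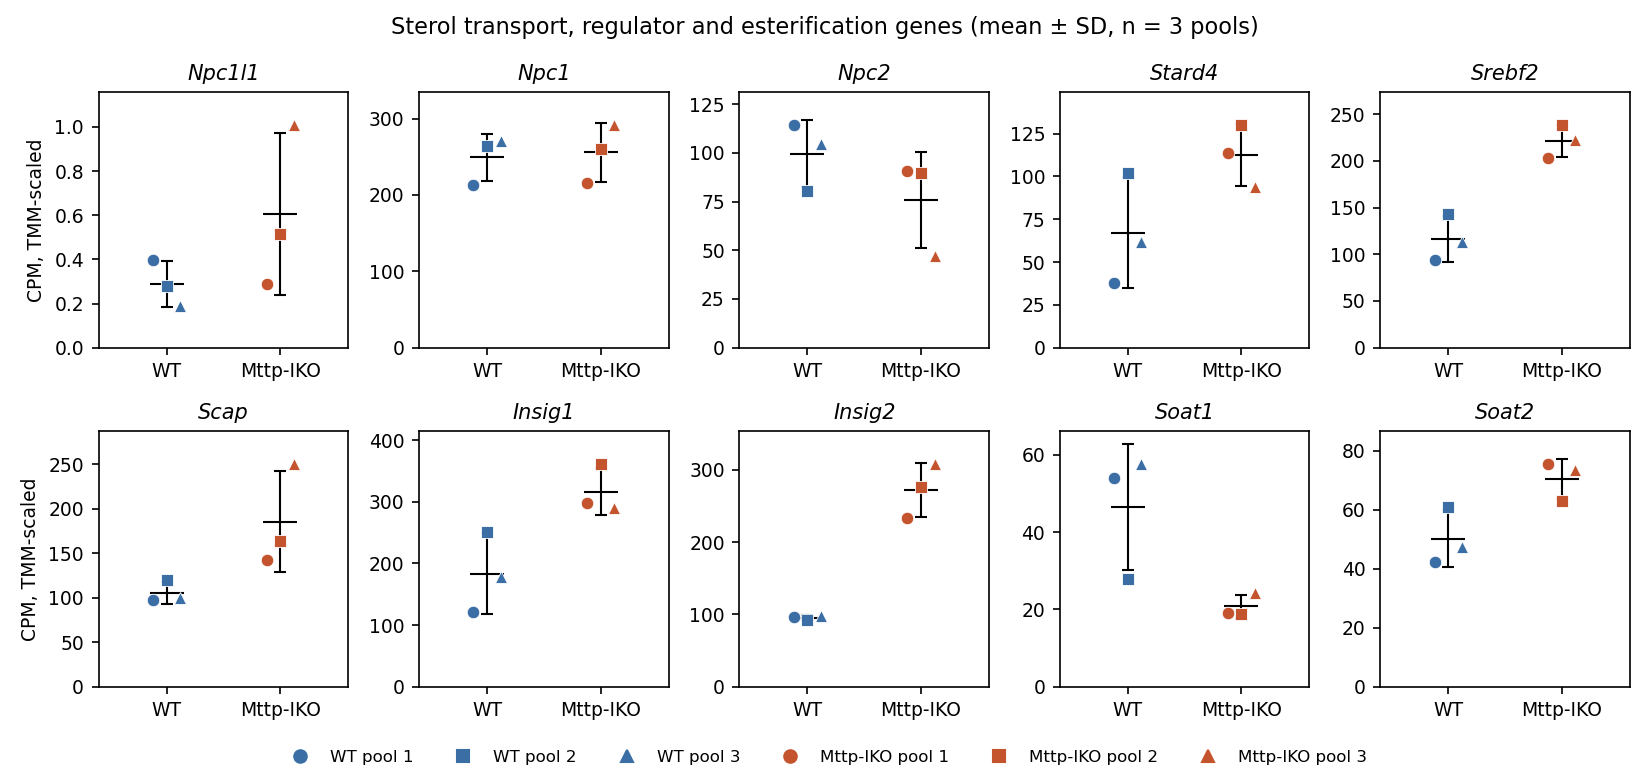
TMM-scaled CPM of the 10 genes outside synthesis in each pool, on separate linear axes that start at 0, with black marks for the mean ± SD of 3 pools. The 4 regulators and Soat2 are higher in all Mttp-IKO pools, Soat1 is lower in all of them, and the 4 transport genes overlap.

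The 4 genes of sterol uptake and transport overlapped between genotypes, and none passed the test by edgeR at either an adjusted or an unadjusted p of 0.05. Npc1, the late endosomal exporter of lipoprotein cholesterol, measured 213, 264 and 270 CPM in WT and 215, 260 and 291 CPM in Mttp-IKO pools. Its log2 fold change of 0.038 had a 95% interval of -0.39 to 0.47, and its sign turned with total-count scaling and with a length trend. Npc2, its soluble partner in the lysosome, measured 114, 80.3 and 105 CPM in WT and 90.5, 89.4 and 47.1 CPM in Mttp-IKO pools, the last value being that of pool 3. Stard4, a cytosolic sterol carrier, followed the pool order of the enzymes, at 37.8, 102 and 61.5 CPM in WT and 113, 130 and 93.9 CPM in Mttp-IKO pools. Its log2 fold change was 0.74 with an interval of -0.021 to 1.51. Npc1l1, the sterol importer of enterocytes, had 6 to 24 reads per pool and could not be judged at this depth.

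The 2 esterification genes went opposite ways. Soat1, the acyltransferase found in most cells and abundant in macrophages, measured 54.0, 27.8 and 57.5 CPM in the WT pools and 19.2, 18.8 and 24.3 CPM in the Mttp-IKO pools. The log2 fold change of -1.16 ± 0.28 (SE) had an adjusted p of 0.0592. Soat1 was called lower in 7 of 16 alternative fits, among them edgeR without a filter (adjusted p = 0.0255). The groups did not overlap, but WT pool 2 lay close to the Mttp-IKO pools. Summed markers of recruited macrophages showed the same pattern among the WT pools, at 1237, 490 and 1296 CPM. Those of stellate cells, at 1719, 930 and 1415 CPM, and of Kupffer cells, at 490, 320 and 454 CPM, were also lowest in WT pool 2. In the Mttp-IKO pools the Kupffer cell markers summed to 583, 370 and 244 CPM and overlapped WT, with 3 of 6 higher and 3 lower. The part of any of these cell types in the Soat1 difference was not tested. Soat2, the acyltransferase of hepatocytes and enterocytes, measured 42.1, 60.9 and 47.5 CPM in WT and 75.3, 62.8 and 73.4 CPM in Mttp-IKO pools, a log2 fold change of 0.49 with an adjusted p of 0.158. The 6 intestinal markers summed to 34.0 to 42.7 CPM in WT and 11.5 to 35.2 CPM in Mttp-IKO pools, and none passed the test. Sis, Alpi and Lct averaged at or below 0.283 CPM in both groups, whereas Fabp2 averaged 36.1 CPM in WT and 20.8 CPM in Mttp-IKO, Vil1 2.02 and 2.42 CPM, and Mep1a 0.12 and 1.41 CPM. The part of intestinal RNA in the Soat2 values was not tested.

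The WT pools differed among themselves in the same order across the pathway. WT pool 1 was the lowest WT pool in 19 of the 20 enzymes, and WT pool 2 was the highest in 20 of 20. The full order from pool 1 through pool 3 to pool 2 held in 19 of 20 enzymes and in 24 of the 30 genes, against 24.6% of all genes tested. Relative to the WT mean, the median enzyme stood at -0.74 in pool 1, 0.65 in pool 2 and 0.08 in pool 3 on the log2 scale, and at 1.27, 1.58 and 1.03 in Mttp-IKO pools 1 to 3. The summed hepatocyte markers had the same WT order, at 55730, 87678 and 71007 CPM, and kept it without Alb, at 15600, 18672 and 17693 CPM. Among the single markers, Alb, Ttr and Cyp2e1 had this order and the others did not. Hpx stood at 5839, 4525 and 5538 CPM in WT pools 1 to 3, Fgb at 1934, 1892 and 1611 CPM, and Cps1 at 2746, 3549 and 3646 CPM. Mttp-IKO pool 2 was the highest of its group in 13 of 20 enzymes.

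**Figure D4:**
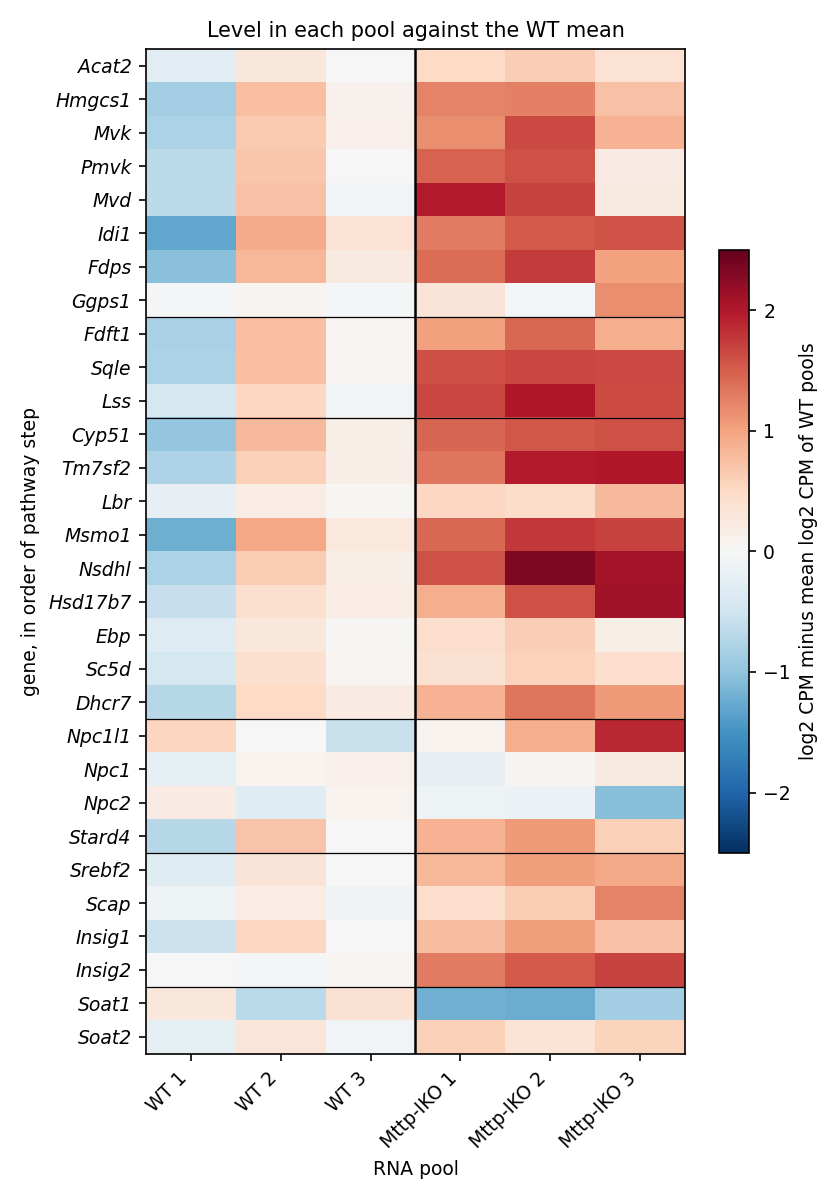
Level of each of the 30 genes in each pool as log2 CPM minus the mean of the 3 WT pools, from blue (lower) through white to red (higher), with lines between pathway steps. WT pool 1 is blue and WT pool 2 red through most of the enzymes, Insig2 is flat across WT, and Soat1 is blue in all Mttp-IKO pools.

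Promoter sequence was read for 24 of the 30 genes from RefSeq (GRCm38.p6), as windows of 300 bases, 250 before each start and 50 after it, and 3 short motifs were searched on both strands. A gene was counted if any of its promoters held the motif. The sterol regulatory element core TCACNCCAC, which SREBPs bind, was found in 1 of the 24 genes (4.17%), against 1.50% of the 11797 tested genes with a promoter and 1.44% of all 27025 genes with one. The one match was in Hmgcs1, TCACCCCAC, 137 bases before the RefSeq start. The Hmgcs1 gene whose reads were counted began further downstream, at chr13:119690462, so the distance holds for the RefSeq start only. For Hmgcs1, Lbr, Nsdhl, Sc5d and Npc1l1, bases just after the RefSeq start were not found in an annotated transcript of the gene. CCAAT, the box that NF-Y binds beside SREBPs, was found in 22 of the 24 genes (91.7%), against 42.2% of tested genes and 41.1% of all genes with a promoter. GGGCGG, the GC box of Sp1, was found in 21 of the 24 genes (87.5%), against 63.8% of tested genes and 38.2% of all genes with a promoter. The motifs do not contain one another, and a match is a string of letters, not a shown binding site. Sites that differ from these strings or lie outside the windows were not counted. A missing match is therefore not a shown absence of a site. Fdps, Fdft1, Sqle, Npc1, Stard4 and Soat2 had no promoter sequence to search. The 250 bases before the start are printed 5′ to 3′ on the gene's strand for the 5 called genes and for Hmgcs1, with TCACNCCAC and CCAAT matches of either strand in capitals (CCAAT on the other strand reads ATTGG). They lay at chr13:119690101-119690350 (Hmgcs1, plus strand), chr10:76531355-76531604 (Lss, plus), chr19:6067851-6068100 (Tm7sf2, minus), chrX:72918271-72918520 (Nsdhl, plus), chr15:82147019-82147268 (Srebf2, plus) and chr1:121332590-121332839 (Insig2, minus).
Hmgcs1: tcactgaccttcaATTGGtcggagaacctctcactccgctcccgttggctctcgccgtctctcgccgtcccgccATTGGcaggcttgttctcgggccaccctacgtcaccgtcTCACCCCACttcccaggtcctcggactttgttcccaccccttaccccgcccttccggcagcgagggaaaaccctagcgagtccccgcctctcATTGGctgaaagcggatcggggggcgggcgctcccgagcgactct
Lss: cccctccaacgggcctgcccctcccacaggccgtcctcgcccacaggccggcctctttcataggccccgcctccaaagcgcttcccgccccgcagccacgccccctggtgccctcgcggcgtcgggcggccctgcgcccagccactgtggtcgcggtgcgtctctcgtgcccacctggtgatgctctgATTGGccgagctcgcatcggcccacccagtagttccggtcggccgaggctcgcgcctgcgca
Tm7sf2: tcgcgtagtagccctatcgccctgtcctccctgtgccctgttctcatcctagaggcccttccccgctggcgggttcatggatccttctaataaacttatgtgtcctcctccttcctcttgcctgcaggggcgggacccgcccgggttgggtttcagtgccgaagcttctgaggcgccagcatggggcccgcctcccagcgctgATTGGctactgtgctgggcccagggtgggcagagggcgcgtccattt
Nsdhl: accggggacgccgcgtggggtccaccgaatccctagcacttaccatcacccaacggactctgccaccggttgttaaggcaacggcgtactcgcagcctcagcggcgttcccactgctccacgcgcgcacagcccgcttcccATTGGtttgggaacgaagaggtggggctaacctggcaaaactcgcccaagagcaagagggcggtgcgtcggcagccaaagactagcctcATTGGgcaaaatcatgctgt
Srebf2: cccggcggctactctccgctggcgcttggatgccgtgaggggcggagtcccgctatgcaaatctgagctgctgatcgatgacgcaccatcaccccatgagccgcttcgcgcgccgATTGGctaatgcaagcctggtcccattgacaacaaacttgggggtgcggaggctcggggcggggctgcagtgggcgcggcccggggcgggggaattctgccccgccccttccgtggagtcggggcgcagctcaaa
Insig2: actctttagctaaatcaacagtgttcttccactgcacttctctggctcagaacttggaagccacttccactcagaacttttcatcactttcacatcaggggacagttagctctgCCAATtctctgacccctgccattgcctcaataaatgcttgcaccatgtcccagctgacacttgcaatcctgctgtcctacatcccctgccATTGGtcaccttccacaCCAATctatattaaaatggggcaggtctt
Each of the 6 held CCAAT at least once before the start, and Hmgcs1 and Insig2 held it 3 times. The Insig2 sequence belongs to the first of 3 annotated starts, the other two held no CCAAT in their 250 bases, and counts per gene do not tell the starts apart.

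Other genes tied to the pathway were counted from lists by role, leaving out the 30. Of 43 such genes 42 were tested, 24 were higher and 18 lower, and the median log2 fold change was 0.03. The 1 gene that passed was Rdh11, a retinol dehydrogenase on the list of further SREBP2-responsive genes, which rose from 25.6 ± 8.74 to 63.5 ± 5.76 CPM (SD, n = 3 pools) with a log2 fold change of 1.31 and an adjusted p of 0.0346. That list had 5 of 5 genes higher and a median of 0.78. The 11 genes of SREBP processing and turnover include the site proteases and the ubiquitin ligases of the Insig complex. By edgeR they had 0 called, 1 at an unadjusted p under 0.05 and a median of 0.01. Over all genes tested, 4.01% were called in either direction, and 9.53% were higher and 13.5% lower at that unadjusted p. Srebf1, the paralogue of Srebf2 that favours fatty acid genes, stood at 186 ± 19.7 CPM in WT and 134 ± 26.6 CPM in Mttp-IKO (SD, n = 3 pools), a log2 fold change of -0.47 with an adjusted p of 0.192.

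The isoprenoid branches to dolichol, ubiquinone and protein prenylation, which draw on the same farnesyl pyrophosphate, had 11 tested genes, 6 higher, 5 lower, none past the test and a median of 0.0053. Intracellular sterol transport had 5 of 10 genes higher, none past the test and a median of -0.055. Among genes of acetyl-CoA supply and electron donation, Acss2, the cytosolic acetyl-CoA synthetase, stood at 39.7 ± 16.6 CPM in WT and 105 ± 52.0 CPM in Mttp-IKO (SD, n = 3 pools), with an adjusted p of 0.107 by edgeR. Por, which feeds electrons to Cyp51 and Sqle, had a log2 fold change of 0.66 (adjusted p = 0.152), and Acat1, the mitochondrial thiolase, one of -0.68 (adjusted p = 0.0862). Fatty acid synthesis genes, set beside the pathway for comparison, were higher in 15 of 15, with a median of 0.69. By edgeR 0 were called and 9 had an unadjusted p under 0.05, and 9 did not overlap. Over all genes tested, 0.920% were called higher, 9.53% were higher at that unadjusted p and 14.5% were higher without overlap. The difference between the medians of the cholesterol and fatty acid genes was not tested.

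Some of the 30 genes share sequence with others, and reads that fit more than one gene were not counted. The share of a gene's 50-base stretches found also in another annotated gene was 39.1% for Acat2 (with Acat3), 26.5% for Fdft1 (with Ctsb, whose exons overlap it, and Gm6781), 26.2% for Fdps and 25.3% for Idi1. Their levels are therefore less certain than their read counts imply. By the same measure the called genes stood at 9.87% for Tm7sf2 (with Vps51, whose exons overlap it on the same strand), 1.86% for Lss, 0.396% for Srebf2 and 0 for Nsdhl and Insig2.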

How the data were processed

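Total liver RNA was depleted of ribosomal RNA and pooled by genotype before sequencing. Per the labels and the study's methods, the authors aligned reads to GRCm38 with STAR 2.5.1a and counted uniquely aligned, unambiguous reads per Ensembl gene with Subread featureCounts 1.4.6-p5; strand use in counting was not given in the sources used here. The deposited values were raw counts with CPM and RPKM, and the deposited CPM and RPKM followed from the counts. Only counts entered tests. From the table of 40481 genes, 276 repeated lines were dropped, and its counts equalled those of the per-pool files of 41388 genes, which were used.

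The 30 genes and all lists were chosen with earlier results of these data known. Genes were filtered with filterByExpr (minimum count 10), scaled by TMM and tested with edgeR 4.0.16 (quasi-likelihood, genotype as the one term, R 4.3.3), with Benjamini-Hochberg adjustment and a threshold of 0.05. The standard error was the log2 fold change divided by the square root of F. Per-pool values were given for genes past the threshold and for the 12 with the smallest p, and other genes by range and counts, with some added after their values were seen. Alternatives were other scalings, no filter, protein-coding genes only, DESeq2 1.42.0, limma-voom (limma 3.58.1), a replicate block, a length trend and leaving out each pool. On counts simulated for 17287 genes with the same set spread for every gene, edgeR recovered 83 of 100 genes changed 2-fold and 100 of 100 changed 4-fold, with 12 false calls. That spread was not the one each gene showed in these data. The recovery rates therefore cannot be carried over to the 30 genes, some of which varied widely. Hmgcs1, for one, stood at 167 ± 85.8 CPM in WT (SD, n = 3 pools). Depth limits cover counting error only.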

Additional observations from a re-analysis of the deposited data

How the results depend on the processing

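The median log2 fold change of the 30 genes stayed within 0.75 to 1.32. The number of non-overlapping genes ran from 18 to 27 wherever computed, fits with a pool left out among them. Groups with fewer pools separate more easily, and the share of all genes is not given for these fits. The range therefore does not measure how stable the separation was. The number of the 30 called was 5 in the main edgeR fit and 8 without a filter (7 higher and 1 lower). It was 18 with DESeq2's Wald test (17 higher and 1 lower). It was 9 with the replicate block and 11 with a length trend and the block. It ran from 0 to 10 when a pool was left out. Genes called over the whole table, 694 of 17287, became 990 of 27802 without a filter, 1995 with DESeq2 and 428 with limma-voom. They ran from 0 to 892 without one pool. The number over all genes for the length trend with the block is not given here. Without Mttp-IKO pool 2 edgeR called 0 genes, with 3221 at an unadjusted p under 0.05. Among single genes only Npc1 (0.038) changed direction, to -0.14 with total counts, -0.082 with a length trend, -0.076 with that trend and the replicate block, -0.086 without WT pool 1 and -0.064 without Mttp-IKO pool 3, and it ranged from -0.086 to 0.15 without one pool. Of 480 single-gene alternatives, 418 kept direction and side of the threshold, 37 gained a call and 20 lost it; all 20 losses came from leaving out a pool. Scaling by total counts moved the median of all genes to -0.17. The cause of these changes was not tested.

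Pools of both genotypes share numbers, but the numbers did not pair them: deviations of same-numbered pools correlated at 0.139, 0.112 and 0.0070. The replicate block gave 592 calls over all genes, and every pool correlated best with its own number except Mttp-IKO pool 3, which is a hint from the data and not from the design. With 3 pools a genotype, pool number limits all tests, and Npc1l1 alone was limited by depth.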

Other observations

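Ratios between 3 pairs of related genes were not among the planned comparisons. In the pairs Soat2 with Soat1 and Srebf2 with Srebf1, the first gene was higher in every Mttp-IKO pool than in any WT pool. The second gene of each pair was lower in every Mttp-IKO pool. Those 2 ratios could therefore not overlap, and they add nothing to the single genes. The CPM ratio of Soat2 to Soat1 was 0.781, 2.19 and 0.826 in the WT pools and 3.93, 3.34 and 3.02 in the Mttp-IKO pools. The ratio of Srebf2 to Srebf1 was 0.525, 0.835 and 0.545 in WT and 1.78, 1.92 and 1.35 in Mttp-IKO pools. The ratio of Insig2 to Insig1 overlapped, at 0.801, 0.364 and 0.553 against 0.781, 0.766 and 1.06. These ratios were picked after their genes were seen and carry no test.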
